A study of Lactuca sativa with 9 samples.

Results

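LOC111900783 is the lettuce gene that both deposited tables describe as a peptidase of family S8A, tripeptidyl peptidase II. All entries under this gene name were taken, which gave 2 of the 1650 circRNAs, circRNA24 and circRNA25, and 1 of the 35342 entries of the gene table. The gene was chosen by its back-spliced reads, since its 2 junctions lie side by side and the reads of circRNA25 differed between light groups, so the back-spliced reads of both circRNAs are given below as a description, and of the gene's own values only the expression of the parental gene was tested. Leaves of 24-d-old Hong Kong Glass lettuce, a single cultivar, were collected from plants grown at 60 µmol per square metre per second (Las_WL, low light intensity), 175 (Las_ML, medium light intensity) and 340 (Las_SL, high light intensity), with 3 libraries in each group. These intensities follow the sample labels, the methods and the figure legends of the study. The opening of its results and a table note exchange those of Las_WL and Las_SL. The plants of all groups were raised in pots of soil in a climate chamber, and each library was made from mixed leaves, which hold several cell types. In such bulk tissue, fewer cells of a type and less RNA per cell cannot be told apart.

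Tripeptidyl peptidase II is a very large cytosolic serine peptidase of the subtilisin type. It cuts short peptides from the free N-terminus of longer ones and acts after the proteasome, which breaks proteins into peptides, while aminopeptidases and oligopeptidases take the products further towards free amino acids. A circRNA arises when the 3′ end of an exon is spliced back to the acceptor site at the 5′ end of the same or an upstream exon. Acceptor sites a few bases apart are a known form of alternative splicing in plants and animals, and in coding sequence a shift by 1 codon adds or removes an amino acid without a change of reading frame.

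The leaf label fitted the markers. The summed FPKM of 25 genes described as chlorophyll a-b binding was 7558 to 19164 in Las_WL, 9781 to 16795 in Las_ML and 8877 to 11701 in Las_SL, and that of the Rubisco small subunit (4 entries) was 3065 to 8265, 3487 to 6793 and 1819 to 3741, while the 3 entries for Casparian strip proteins of the root endodermis summed to at most 1.38. Las_WL replicate 1 stood apart. The summed FPKM of 50 histone and MCM entries, which mark dividing cells, was 8013 in this library, against 512 and 589 in the other Las_WL libraries, 625 to 1794 in Las_ML and 598 to 2289 in Las_SL. The same library had 398 back-spliced reads in the whole circRNA table, the lowest number, while the others had 558 to 1036. The ratios, shares and list medians that rest on it are therefore also given without it, and the part of the dividing cells in them was not tested.

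Both circRNAs came from the plus strand of scaffold NW_019673549.1 of Lsat_Salinas_v7 and ended at the same base, 97714. circRNA24 started at 97390 and circRNA25 at 97393, 3 bases downstream, so that they shared the donor and differed in the acceptor of the back-splice. Each was listed as exonic with 2 exons. The span on the genome, with the intron between the exons, was 325 bp for circRNA24 and 322 bp for circRNA25, below the median of 426 bp of the 507 circRNAs of 2 exons. The flanking introns were short, with 72 bp (circRNA24) or 75 bp (circRNA25) upstream and 71 bp downstream, and of 1507 exonic circRNAs with an intron on both sides 43 (2.85%) had no flanking intron above 75 bp. The medians over those circRNAs were 161 bp on the left and 156 bp on the right. The 2 acceptors belong to annotated transcripts, as circRNA24 was assigned to XM_023896660.1 and circRNA25 to XM_023896662.1, both among the 5 transcripts that the gene table lists for LOC111900783.

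**Figure D1:**
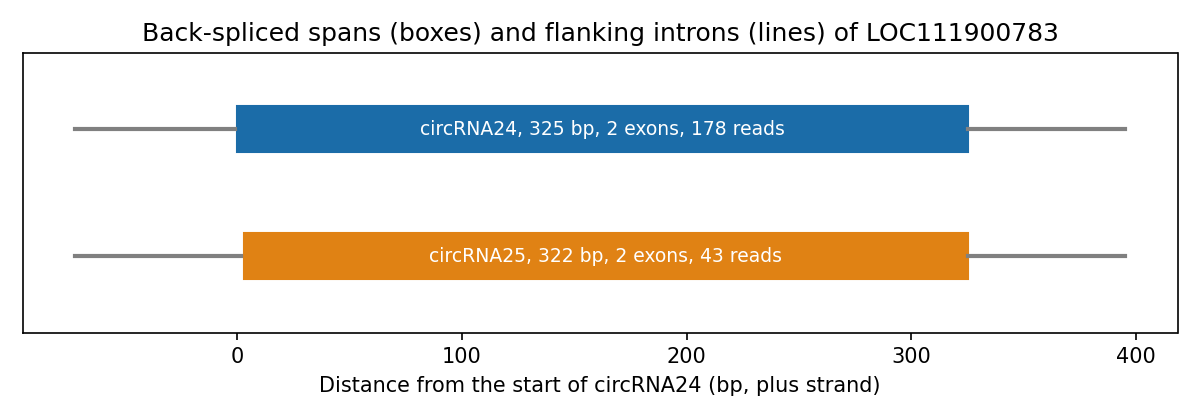
Map of both back-spliced spans of LOC111900783, with the distance in bp from the start of circRNA24 on the x axis. Boxes are the spans from acceptor to donor (325 bp and 322 bp), grey lines the flanking introns. The boxes end together and start 3 bases apart.

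Neighbouring back-splice sites of this kind were rare in the table. Over all 1650 circRNAs, 6 pairs on the same scaffold shared one end and lay 1 to 10 bases apart at the other. The pair of LOC111900783 held 178 and 43 reads and was seen side by side in 8 libraries. In the other pairs no member had more than 6 reads, and a pair was seen together in at most 1 library. Of these, circRNA961 and circRNA558 of LOC111912780 (acceptors 7 bases apart, 1 and 2 reads) and circRNA1036 and circRNA451 of LOC111889565, an ataxin-2 gene (acceptors 4 bases apart, 1 read each), were exonic. The rest were intronic circRNAs that differed at the donor end, namely ciRNA142 and ciRNA99 of LOC111900973 (9 bases, 1 read each), ciRNA11 and ciRNA96 of LOC111921286 (1 base, 6 and 1 reads) and ciRNA91 and ciRNA52 of LOC111890097 (6 bases, 1 read each). No other pair therefore had the depth to compare the use of its junctions between groups.

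By its reads circRNA24 had rank 3 and circRNA25 rank 15 among all circRNAs. Together their 221 reads made up 3.23% of the 6836 back-spliced reads, which placed LOC111900783 at rank 3 among 1325 parental genes. circRNA24 had 7, 12 and 19 reads in the Las_WL libraries, 27, 29 and 25 in Las_ML and 22, 21 and 16 in Las_SL. It was seen in all 9 libraries. Every Las_ML library had more raw reads than every library of the other groups, but Las_ML and Las_SL overlapped once library size was accounted for. circRNA25 had 0, 2 and 2 reads in Las_WL, 7, 6 and 5 in Las_ML and 7, 6 and 8 in Las_SL. It was missing in Las_WL replicate 1 alone, a count of 0 that allows up to 3 reads, or 4.35 per 100000000 uniquely mapped reads. Its numbers in Las_ML and Las_SL were alike, and each was above every Las_WL library. circRNA24 outnumbered circRNA25 in every library, 4.14 times over the libraries summed.

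**Figure D2:**
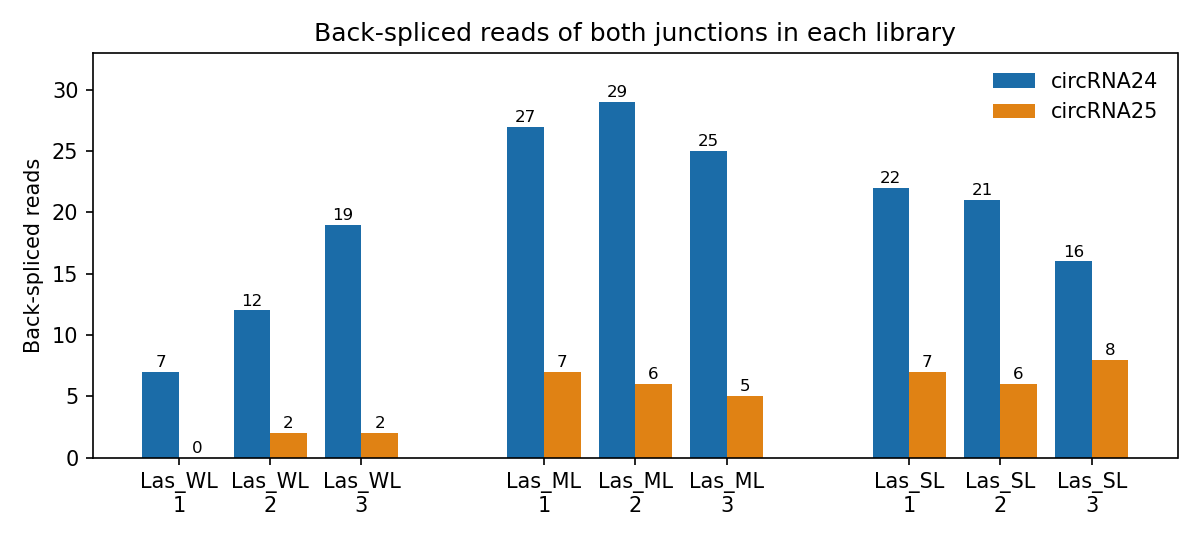
Back-spliced reads of circRNA24 and circRNA25 in each library, in groups of low, medium and high light intensity (Las_WL, Las_ML, Las_SL), with the number above each bar. circRNA24 ranged from 7 reads in Las_WL replicate 1 to 29 in Las_ML replicate 2, and circRNA25 from 0 to 8.

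To account for library size, reads were divided by the uniquely mapped reads of each library and are given per 100000000 of them. circRNA24 averaged 19.8 ± 10.5 in Las_WL (SD, n = 3), 35.6 ± 4.12 in Las_ML and 29.2 ± 3.35 in Las_SL. The spread in Las_WL was wide, with 10.2, 18.3 and 31.0 in replicates 1, 2 and 3, and its highest library lay within the range of Las_SL (25.4 to 31.5) and just below that of Las_ML (31.0 to 39.0). circRNA25 averaged 2.10 ± 1.82 in Las_WL, 7.83 ± 0.384 in Las_ML and 10.5 ± 1.99 in Las_SL. Its groups did not overlap and stood in the order of the labelled light intensity, with 0 to 3.26 in Las_WL, 7.39 to 8.06 in Las_ML and 8.80 to 12.7 in Las_SL. The gap between the highest Las_ML and the lowest Las_SL library was smaller than the range within Las_SL.

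**Figure D3:**
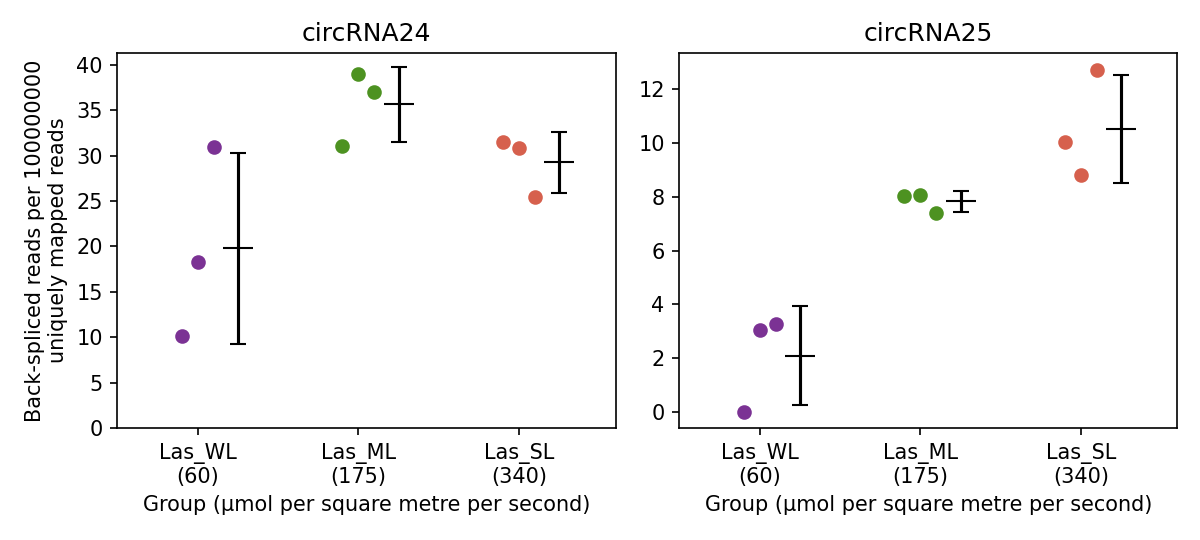
Back-spliced reads per 100000000 uniquely mapped reads of circRNA24 (left) and circRNA25 (right) by group, with the light intensity in brackets. Points are libraries and bars the mean ± SD of 3 libraries. For circRNA24 one Las_WL library reached 31.0, within the range of Las_SL, whereas for circRNA25 no Las_WL library exceeded 3.26.

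Ratios of the summed reads, each set against the uniquely mapped reads, are given with exact 95% intervals that cover counting error only. In the Las_WL vs. Las_ML comparison circRNA24 had 38 reads in Las_WL and 81 in Las_ML, a ratio of 0.549 (0.363 to 0.816), and circRNA25 had 4 and 18, a ratio of 0.260 (0.0640 to 0.789). Neither circRNA overlapped between these groups. Of the 347 circRNAs found in 2 or more libraries, 3.75% were lower in every Las_WL than in every Las_ML library. In the Las_SL vs. Las_WL comparison the ratio was 1.51 for circRNA24 (59 reads in Las_SL against 38 in Las_WL, 0.991 to 2.34) and 5.12 for circRNA25 (21 against 4, 1.73 to 20.5). Only circRNA25 of the pair did not overlap here, as 2.59% of the circRNAs did not in this direction. In the Las_SL vs. Las_ML comparison circRNA24 had 59 reads in Las_SL and 81 in Las_ML, a ratio of 0.831 (0.584 to 1.18), and circRNA25 had 21 and 18, a ratio of 1.33 (0.675 to 2.65). Here circRNA25 did not overlap between the groups, as 2.31% of the circRNAs did not in this direction. The log2 fold changes fitted with edgeR were -0.28 (standard error 0.49) for circRNA24 and 0.41 (0.58) for circRNA25 in Las_SL vs. Las_ML, -0.85 (0.51) and -1.85 (0.79) in Las_WL vs. Las_ML, and 0.57 (0.52) and 2.26 (0.77) in Las_SL vs. Las_WL. With edgeR's quasi-likelihood test, a choice made here, p of 0.05 or less and a log2 fold change of at least 1 in either direction called 2.31% of the 347 circRNAs in Las_SL vs. Las_ML, 3.17% in Las_WL vs. Las_ML and 3.75% in Las_SL vs. Las_WL. The standard errors above were back-calculated from the fold changes and the statistics of this test, and are a description. No call is given for circRNA24 and circRNA25, since the gene was chosen with their reads known.

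The ratios that involve Las_WL leaned on single libraries. Without Las_WL replicate 1, that of circRNA24 was 0.690 in Las_WL vs. Las_ML and 1.20 in Las_SL vs. Las_WL, and that of circRNA25 was 0.401 and 3.32. The fitted log2 fold change of circRNA25 without this library was -1.27 in Las_WL vs. Las_ML and 1.68 in Las_SL vs. Las_WL. Without Las_WL replicate 3 the Las_SL vs. Las_WL ratio was 2.08 for circRNA24, whose groups then did not overlap, and 7.03 for circRNA25. The groups of circRNA25 did not overlap with all libraries included, so leaving a library out could not make them overlap and says nothing further.

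In the SRPBM values of the authors, which are scaled to candidate back-spliced junction reads instead, circRNA24 had 58.9, 153 and 255 in Las_WL, 251, 334 and 244 in Las_ML and 251, 260 and 187 in Las_SL. With this scale Las_WL replicate 3 lay among the libraries of both other groups. circRNA25 had 0, 25.6 and 26.8 SRPBM in Las_WL, 65.0, 69.1 and 48.9 in Las_ML and 79.9, 74.3 and 93.5 in Las_SL, again without overlap.

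The other back-spliced reads of the libraries moved in part with the pair. Without circRNA24 and circRNA25, the libraries held 831 ± 245 back-spliced reads per 100000000 uniquely mapped reads in Las_WL, 1108 ± 46.3 in Las_ML and 1216 ± 174 in Las_SL (SD, n = 3). The pair took 1.76%, 1.99% and 3.76% of all back-spliced reads in Las_WL replicates 1, 2 and 3, 3.28% to 4.06% in Las_ML and 2.73% to 3.47% in Las_SL. By this measure Las_WL replicate 3 stood above every Las_SL library, and the low share was that of Las_WL replicates 1 and 2. Over the 9 libraries the pair and the other back-spliced reads had a Pearson correlation of 0.73 (Spearman 0.65), which was 0.36 without Las_SL replicate 2 and Las_WL replicate 1, the libraries farthest from the median. circRNA24 and circRNA25 had a correlation of 0.60 (Spearman 0.37), which turned to -0.41 without Las_WL replicates 1 and 2. The libraries of a group share their light treatment and both circRNAs share each library, so these values are descriptions.

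The use of the downstream acceptor was expressed as the share of circRNA25 in the reads of both junctions. It was 19.5% over all libraries (43 of 221 reads, exact 95% interval 14.5% to 25.3%). The share was 0%, 14.3% and 9.52% in Las_WL, 20.6%, 17.1% and 16.7% in Las_ML and 24.1%, 22.2% and 33.3% in Las_SL. All Las_WL libraries were thus below all Las_ML libraries, and these below all Las_SL libraries. With 7 to 35 reads per library, however, the counting interval of each of the 9 libraries included the 19.5% of all libraries. Summed over a group, the share was 9.52% in Las_WL (4 of 42 reads, 2.66% to 22.6%), 18.2% in Las_ML (18 of 99, 11.1% to 27.2%) and 26.2% in Las_SL (21 of 80, 17.04% to 37.3%), and the intervals of all groups overlapped. The summed share in Las_WL was 11.4% without Las_WL replicate 1. Since this share is computed from reads that were used to choose the gene, its order was not tested. The share does not depend on the number of reads used to scale the libraries.

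**Figure D4:**
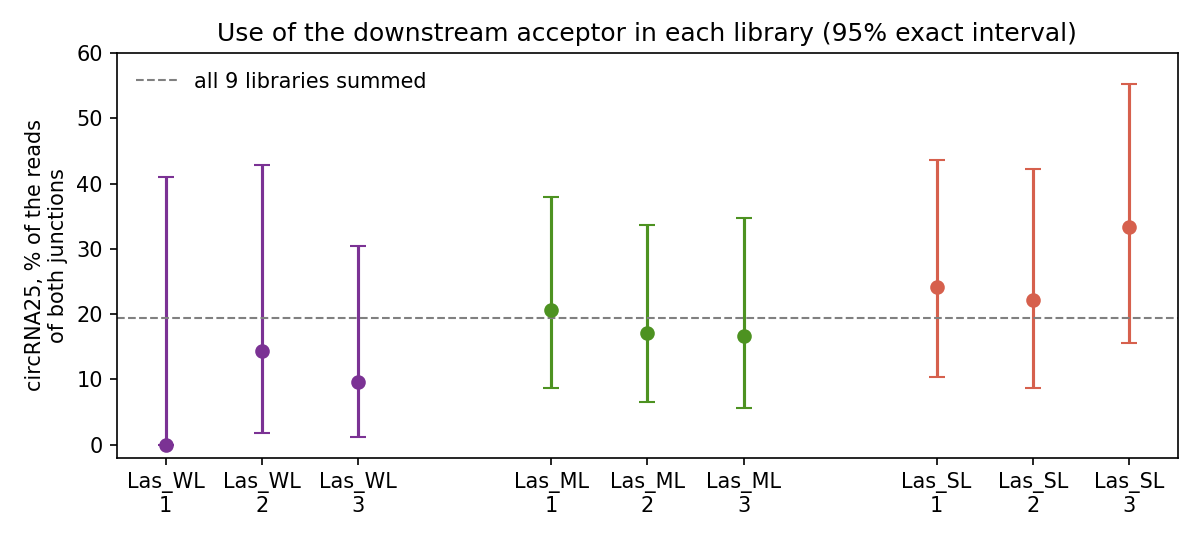
Share of circRNA25 in the back-spliced reads of both junctions in each library (y axis, percent), with exact 95% binomial intervals that cover counting error only. The dashed line is the share over all libraries, 19.5%, and lies within the interval of each library.

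The FPKM of the parental gene were not used to choose it and were tested. LOC111900783 had 37.7, 32.3 and 37.2 FPKM in Las_WL, 34.5, 31.9 and 36.1 in Las_ML and 37.2, 33.2 and 35.0 in Las_SL. The groups overlapped fully, with means of 35.8 ± 3.004 in Las_WL (SD, n = 3), 34.2 ± 2.14 in Las_ML and 35.2 ± 1.99 in Las_SL. With limma on log2(FPKM + 1), the log2 fold change was 0.04 for Las_SL vs. Las_ML (standard error 0.13, adjusted p = 1.0), 0.06 for Las_WL vs. Las_ML (0.13, adjusted p = 0.954) and -0.02 for Las_SL vs. Las_WL (0.13, adjusted p = 0.952). The log2 fold change was 0.02 in both comparisons with Las_WL when Las_WL replicate 1 was left out. The 95% intervals of the change ran from 0.835-fold to 1.27-fold, from 0.848-fold to 1.28-fold and from 0.800-fold to 1.21-fold in this order, so that larger changes of the parental gene in these libraries lay outside them. Among the 26145 genes tested, 0.00382% were called in Las_SL vs. Las_ML, 0% in Las_WL vs. Las_ML and 2.93% in Las_SL vs. Las_WL at an adjusted p below 0.05 and a log2 fold change of at least 1 in either direction. The last number was not stable, as 767 genes were called with all libraries and 0 with a replicate block, and the median log2 fold change of all genes in this comparison was 0.18. The gene itself was called under no setting.

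LOC111900783 was one of the most even genes of the table. Its FPKM ranged from 31.9 to 37.7 over the 9 libraries, with a coefficient of variation of 6.30%, against a median of 32.8% over all genes tested. Only 50 of the 26145 genes varied less, and 23 of the 4206 genes with a mean FPKM between 17.5 and 70.1 (0.547%), whose median was 25.2%. Even Las_WL replicate 1, with its high histone level, had an FPKM of this gene (37.7) close to that of Las_WL replicate 3 (37.2). By the study's methods the RNA was treated with RNase R, which degrades linear transcripts, so FPKM may count only what escaped it.

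With an even parental gene, the reads of the pair per FPKM followed the reads themselves. Reads of both junctions per 100000000 uniquely mapped reads came to 0.269, 0.660 and 0.918 per FPKM in Las_WL, 1.13, 1.47 and 1.23 in Las_ML and 1.12, 1.19 and 1.09 in Las_SL. All Las_WL libraries lay below the libraries of the other groups, with means of 0.616 ± 0.327 in Las_WL, 1.28 ± 0.176 in Las_ML and 1.13 ± 0.0531 in Las_SL (SD, n = 3). Las_ML and Las_SL overlapped. The share of other parental genes with Las_WL likewise apart was not computed, and this ratio rests on the reads by which the gene was chosen. The mean in Las_WL was 0.789 without Las_WL replicate 1. Over all libraries the gene had 1.01 reads per FPKM, rank 13 of 69 parental genes with at least 10 back-spliced reads that could be joined to the gene table, where the median was 0.334. Across libraries the reads of the pair had a Pearson correlation of -0.26 with the FPKM (Spearman -0.40). The study also tested circRNA24 by PCR with Sanger sequencing, and circRNA24 and its parental gene by RT-qPCR. It lists this gene among those inversely correlated with their circRNA. Most circRNAs tested this way are described there as lower in Las_ML, without naming the exception. The study also describes the RT-qPCR values of its selected circRNAs as matching its sequencing values. In the reads used here circRNA24 had its highest mean in Las_ML (35.6), though the Las_ML and Las_SL libraries overlapped. The RT-qPCR values were not compared.

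**Figure D5:**
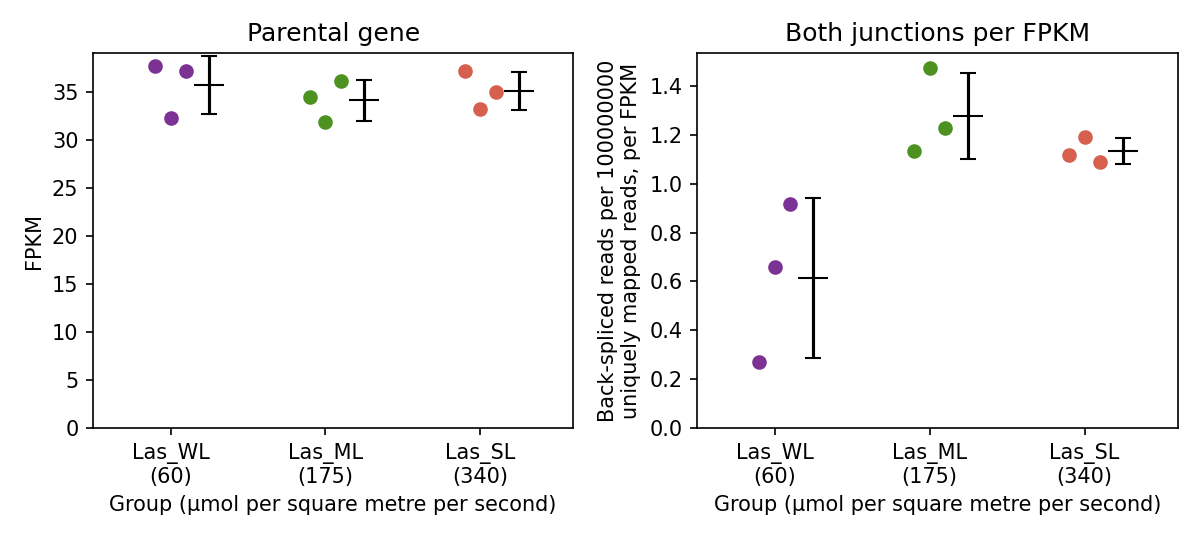
FPKM of LOC111900783 (left) and back-spliced reads of both junctions per 100000000 uniquely mapped reads and per FPKM (right) by group, with the light intensity in brackets. Points are libraries and bars the mean ± SD of 3 libraries. FPKM stayed between 31.9 and 37.7 in all groups, while the 3 Las_WL libraries were below 0.92 reads per FPKM and all others above 1.08.

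The genes whose expression pattern was most like that of LOC111900783 were sought by the Pearson correlation of log2(FPKM + 1) over the 9 libraries among 22913 other named entries. The highest was 0.93 for LOC111918518, a heat shock factor gene, followed by LOC111879117 (Gnk2-homologous domain, 0.92), the entry LOC111876440;LOC111876443 (glycosyltransferase, 0.91), LOC111910615 (concanavalin A-like lectin, 0.91) and a lysine tRNA gene (0.90). These genes varied far more than LOC111900783, LOC111918518 for example between 0.685 and 1.77 FPKM, and were expressed at low levels, with mean FPKM of 1.07 to 4.96. The lowest values were -0.91 for LOC111891928 and LOC111878683, both without a described function, and -0.90 for LOC111885649, a putative plastidic glutamine synthetase gene. As LOC111900783 itself had a coefficient of variation of only 6.30%, these likenesses are a description of these libraries. Among 70 other circRNAs with at least 10 reads, those most like the summed pair were circRNA35 (0.69), circRNA219 (0.68) of LOC111893751, a gene for a ubiquitin-protein ligase, and circRNA115 (0.65), with 16 to 22 reads each, too few for more than a weak likeness.

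Genes of the same family and, for the pathway, of the proteasome and other peptidases were taken as lists by words in their descriptions. These words also took in genes such as methionine aminopeptidases and serine carboxypeptidases, and the place of each entry in the pathway was not checked. The subtilase list is a family, and its other members were not placed in the pathway. Of 28 tested subtilase genes, LOC111900783 included, none was called in any comparison, against 0.00382% of all genes in Las_SL vs. Las_ML, 0% in Las_WL vs. Las_ML and 2.93% in Las_SL vs. Las_WL. At these shares the count says little about the list, which had a median log2 fold change of -0.10 in Las_SL vs. Las_ML, 0.03 in Las_WL vs. Las_ML and -0.12 in Las_SL vs. Las_WL, where the medians of all genes were 0.05, -0.13 and 0.18. Without Las_WL replicate 1 the median of the list was -0.14 in Las_WL vs. Las_ML and 0.06 in Las_SL vs. Las_WL, and that of all genes -0.26 and 0.32. LOC111900783 was the only entry described as tripeptidyl peptidase. The most abundant subtilase genes were LOC111880248 (mean of 178.6 FPKM), LOC111910341 (153.9 FPKM) and LOC111892533 (72.8 FPKM). Of these LOC111892533 varied widely, with 114 ± 55.3 FPKM in Las_WL, 64.1 ± 27.2 in Las_ML and 40.5 ± 33.2 in Las_SL (SD, n = 3). Its highest value, 175.5 FPKM, was that of Las_WL replicate 1, against 97.2 and 68.8 in the other Las_WL libraries, and it did not pass the test (limma, Las_SL vs. Las_WL, log2 fold change of -1.97, adjusted p = 0.193).

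The proteasome stands upstream in this route of protein breakdown. None of the 56 entries with this word in their description was called in any comparison. The shares of all genes were again 0.00382%, 0% and 2.93%. Their median log2 fold changes were 0.12 in Las_SL vs. Las_ML, 0.04 in Las_WL vs. Las_ML and 0.07 in Las_SL vs. Las_WL. The medians of all genes were 0.05, -0.13 and 0.18. Without Las_WL replicate 1 the last 2 medians of the list were -0.31 and 0.38, and those of all genes -0.26 and 0.32. The sign of the list in Las_WL vs. Las_ML thus rested on this library, and without it the list was close to all genes. LOC111880971, an ATPase subunit of the regulatory particle, had 158.5, 81.0 and 88.0 FPKM in Las_WL, 95.3, 96.2 and 106 in Las_ML and 105, 103 and 104 in Las_SL. Las_WL replicate 1 was the highest of all, and the other Las_WL libraries lay below every Las_ML and Las_SL library. LOC111921632 (beta type-1 subunit) averaged 84.1 FPKM over all libraries and LOC111882288 (alpha type-6 subunit) 68.5 FPKM. Without Las_WL replicate 1 there was again no call at a log2 fold change of at least 1, but 16 proteasome genes then had an adjusted p below 0.05 in Las_SL vs. Las_WL, all higher in Las_SL (limma, against 21.6% of all genes at this p in either direction, and 0 of the 56 with all libraries).

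Of 43 tested genes described as aminopeptidases, oligopeptidases or related peptidases, 2 rose in Las_SL vs. Las_WL and none was called in the other comparisons, against 2.93% of all genes in Las_SL vs. Las_WL, so that the count is no result about the list. Over all genes none was called in this comparison with a replicate block or without Las_SL replicate 3, and both calls were lost there. LOC111901121, a puromycin-sensitive aminopeptidase that trims peptides from the N-terminus, had 5.42 ± 0.922 FPKM in Las_SL and 2.02 ± 0.593 in Las_WL (SD, n = 3, limma, log2 fold change of 1.10, adjusted p = 0.0297). LOC111878428, a carboxypeptidase of family M14 that the matched words took in, had 5.64 ± 0.605 FPKM in Las_SL and 2.22 ± 0.998 in Las_WL (log2 fold change of 1.08, adjusted p = 0.0369). Without Las_WL replicate 1, 1 gene of this list was called in this comparison, and 1 was lower in Las_WL vs. Las_ML. The list median was 0.18, equal to that of all genes. Its most abundant genes were LOC111909254 (leucine aminopeptidase, 48.5 FPKM), LOC111882192 (prolyl oligopeptidase, 48.5 FPKM) and LOC111920149 (aminopeptidase of family M18, 32.1 FPKM), none of which was called.

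The other genes of the lists had fewer back-spliced reads, which follows in part from choosing LOC111900783 by such reads. Other subtilase genes had 13 circRNAs with 84 reads in all, of which 10 had a single read. One of them, circRNA99 of LOC111916189, named here after its values were seen, had 65 reads and also consisted of 2 exons. It had 5, 8 and 3 reads in Las_WL, 8, 6 and 8 in Las_ML and 13, 7 and 7 in Las_SL, or 8.11 ± 3.73, 9.69 ± 1.93 and 13.3 ± 4.61 per 100000000 uniquely mapped reads (SD, n = 3), and the groups overlapped. Its parental gene averaged 7.08 FPKM, and all back-spliced reads of this gene came to 2.13 per FPKM, rank 4 of 69, above LOC111900783 at 1.01. The circRNAs of proteasome genes had 11 reads in all (8 circRNAs), and those of the other peptidase genes 22 (13 circRNAs).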

How the data were processed

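The authors trimmed reads with Cutadapt, mapped them to Lsat_Salinas_v7 with TopHat2 and TopHat-Fusion and called circRNAs with CIRCexplorer2, while the submitters' processing notes list Bowtie, HISAT2 and StringTie. According to the methods rRNA was depleted and RNase R used, whereas the protocol with the samples describes polyadenylated RNA. The deposited counts are raw back-spliced reads, the SRPBM signal was scaled by the authors to candidate junction reads, and the FPKM values were computed by the authors. Other deposited columns hold positions and exon numbers.

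Using R 4.3.3, edgeR 4.0.16 (quasi-likelihood) was run on the back-spliced counts of 347 circRNAs found in 2 or more libraries, and the library size was the number of uniquely mapped reads that the study states. For FPKM, limma 3.58.1 with a trend was applied to log2(FPKM + 1), a scale that understates changes of low genes, over 26145 genes with a mean of at least 0.5, with Benjamini-Hochberg adjustment. Fits used all 9 libraries. Intervals of shares and ratios are exact (Clopper-Pearson, 95%). Removal of PCR copies is not given in the sources used here, and the intervals cover counting error only. The libraries held 398 to 1036 back-spliced reads. Samples were grouped by their titles. The p-values measure the spread between libraries of mixed leaves that the study gives as biological replicates. Its methods do not state whether a light treatment was repeated in separate chambers or layers. An effect of the layer and one of the light cannot be told apart. Both fits were tested on simulated data.

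The gene and the lists were chosen with earlier results of these data known. Named are the gene and its circRNAs, all neighbouring pairs, the 5 genes most like it and the 3 least like it, the 3 circRNAs most like the pair, and of each list the 3 most abundant and all called genes. Alternatives were other pseudocounts, filters, library sizes and normalization, DESeq2 1.42.0, a replicate block, only the libraries of a comparison, and each library left out. Lists without Las_WL replicate 1 were added after the data were seen. Tables and plots were made in Python 3.11.15 (matplotlib 3.10.9, scipy 1.17.1, pandas 2.3.3, numpy 2.4.6). RefSeq sequences of this gene were not used here.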

Additional observations from a re-analysis of the deposited data

How the results depend on the processing

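LOC111900783 stayed without a call under all 16 alternatives in each comparison, with log2 fold changes from -0.05 to 0.08 in Las_SL vs. Las_ML, 0.01 to 0.16 in Las_WL vs. Las_ML and -0.21 to 0.02 in Las_SL vs. Las_WL (limma, lowest adjusted p = 0.472). Quantile normalization gave -0.05, 0.16 and -0.21. The fitted log2 fold changes of circRNA24 and circRNA25 moved by less than the spread between libraries under every alternative run. So did the share of circRNA25 and the reads per FPKM. Leaving out 1 of 3 libraries moves a group mean by only part of that group's spread. Most alternatives were of this kind and could hardly show a larger shift, so they are no sign of stability. For circRNA24 the shift came close to the spread. Without Las_WL replicate 3 its log2 fold change went from -0.85 to -1.32 in Las_WL vs. Las_ML and from 0.57 to 1.04 in Las_SL vs. Las_WL. The SD of its log2 reads within groups was 0.467. Replicate numbers did not pair the libraries, as the deviations of same-numbered libraries had correlations from -0.52 to 0.56. With the replicate block, the log2 fold change of the parental gene was 0.04, 0.06 and -0.02 in Las_SL vs. Las_ML, Las_WL vs. Las_ML and Las_SL vs. Las_WL, as without it.

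The numbers of genes called over the whole table were far less stable. In Las_SL vs. Las_WL 767 genes were called, against 6 with quantile normalization, 1 when Las_ML was left out of the fit, 0 with the replicate block, and 0 to 1077 with each library left out. In Las_SL vs. Las_ML 1 gene was called, against 2 without the filter and 0 to 11 with a library left out. In Las_WL vs. Las_ML limma called 0 genes, with 594 at an unadjusted p of 0.05 or less, against 2 with a pseudocount of 0.1, a mean FPKM of at least 5 or quantile normalization, and 0 to 77 with a library left out, the most without Las_WL replicate 1. The unadjusted threshold gave 373 genes in Las_SL vs. Las_ML and 1640 in Las_SL vs. Las_WL. For circRNAs, DESeq2 called 2, 4 and 3 in Las_SL vs. Las_ML, Las_WL vs. Las_ML and Las_SL vs. Las_WL, against 8, 11 and 13 with edgeR. With the replicate block 5, 9 and 8 circRNAs were called, and with at least 10 reads 4 in Las_SL vs. Las_ML. Depth limits the circRNA values, since a library held 7 to 35 reads of the pair.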
